A study of Mus musculus with 4 samples.

Results

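Erythroid transcription factors are the nuclear proteins that commit blood progenitors to the red cell lineage and keep that programme running. They were set here as a list of 10 genes: Gata1, Klf1, Tal1, Lmo2, Ldb1, Nfe2, Zfpm1, Gfi1b, Bcl11a and Zbtb7a. The list was chosen by name, and an isoform belongs to it when its Ensembl transcript identifier maps to one of these symbols. Of the 10 genes, 9 were found among the 33783 gene symbols of the 4 libraries, and Zfpm1 was not analysed here. The 9 were all read in the liver libraries, and Bcl11a and Zbtb7a were also read in the embryo libraries. The other members have no entries for the embryos, which says nothing of their level there.

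The libraries were made from total RNA of mice that all lack Adar1 by their labels, with or without loss of Mavs. The groups were embryonic liver at E15.5 (embryonic day), Adar1-/- Mavs-/-, strain label C57B6/J; embryonic liver at E15.5, Adar1-/-, the same strain label; whole embryo at E11.5, Adar1-/- Mavs-/-, strain label C57B16/N; and whole embryo at E11.5, Adar1-/-, the same strain label. ADAR1 is an adenosine deaminase of double-stranded RNA, and MAVS relays the signal of the cytoplasmic RNA sensors that start the interferon response. Each group has 1 library, with no wild-type library and no stated number of pooled animals, so no difference has a replicate check and each value compares libraries, not genotypes.

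In the fetal liver, the main site of red cell formation at this age, GATA1 binds DNA together with a complex built from TAL1, LMO2 and LDB1, and KLF1 binds CACCC elements of globin and red cell genes. NFE2 is the tissue-restricted subunit of the dimer NF-E2, which it forms with a small MAF protein. GFI1B represses genes through the LSD1 and CoREST proteins, and BCL11A and ZBTB7A are repressors known for silencing embryonic and fetal globin genes. Several of these factors also act outside red cells, GATA1, NFE2 and GFI1B in megakaryocytes, GATA1 in mast cells and eosinophils, TAL1 and LMO2 in blood vessels, and BCL11A in B cells and neurons.

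Levels are given in FPKM as deposited, that is, read fragments per transcript kilobase scaled to library size, summed over the isoforms of a gene. The bounds beside them combine the deposited confidence bounds of the isoforms, and cover estimation within a library only. Differences are log2 ratios of FPKM plus a pseudocount of 1, Adar1-/- Mavs-/- over Adar1-/-, after scaling by a factor of 0.995 in liver and 1.34 in embryo, with the range that the bounds allow. A size of at least 1, a 2-fold difference, was called, and a gene listed at 0 in a library was given no fold. Reference isoforms carry an Ensembl identifier, assembled isoforms were built from the reads, and the status LOWDATA or FAIL marks an isoform whose estimate Cufflinks held to be poorly determined or failed. For genes of low level this pseudocount makes the difference look smaller than it is.

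The table of the liver labelled Adar1-/- Mavs-/- held 289174 isoforms and 12448 genes at 1 FPKM or more, and that of the liver labelled Adar1-/- held 301774 isoforms and 13019 such genes. The embryo tables held 30090 isoforms for Adar1-/- Mavs-/- and 24127 for Adar1-/-. They covered 5820 gene symbols for Adar1-/- Mavs-/- and 4201 for Adar1-/-, against 33777 and 33779 in the livers with these labels. Shares of embryo genes given below refer to that part only. The median log2 ratio of all genes above 0 in both libraries was -0.13 in liver and -0.11 in embryo. Mavs, the gene by which the liver labels differ, had 9.96 FPKM (bounds 9.17 to 10.7) in the liver labelled Adar1-/- Mavs-/- and 7.26 FPKM (bounds 6.64 to 7.88) in the liver labelled Adar1-/-, so its level went against the label Mavs-/-. Adar, lost in both by the labels, had 4.11 FPKM in the liver labelled Adar1-/- Mavs-/- and 5.56 FPKM in the liver labelled Adar1-/-, with 3 of its 8 reference isoforms above 0 in the liver labelled Adar1-/- Mavs-/- and 0 of 8 in the liver labelled Adar1-/-. The sources used here do not say which part of either gene is deleted, so transcripts outside it may be read. Every liver direction below is therefore one between libraries with these labels.

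In the E15.5 livers the core activators Gata1, Klf1, Tal1, Lmo2 and Ldb1 were abundant and within 2-fold between the libraries, and Nfe2 could not be compared. For Lmo2 this holds for the ratio alone, since the range its bounds allow, -0.61 to 3.46, reached past 2-fold. The repressor Zbtb7a was 2.63-fold lower in the liver labelled Adar1-/- Mavs-/-, and Gfi1b was 1.81-fold lower, short of the 2-fold line. Of the 8 members above 0 in both liver libraries, 1 was at least 2-fold lower, 0 were at least 2-fold higher and 7 lay within 2-fold. Among all 12807 genes above 0 in both, 9.49% were 2-fold apart either way and 6.79% were 2-fold lower, so 1 of 8, or 12.5%, is close to the background. The bounds were apart for 6 of the 8, against 70.6% of all genes. The median log2 ratio of the 8 was 0.15, with 5 above 0 and 3 below 0, where 41% of all genes were above 0, but it was -0.17 with TPM scaling (to the summed FPKM of the named genes), under which all 5 of the ratios above 0 turned below 0. In whole tissue, fewer cells of a type and less RNA per cell cannot be told apart.

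**Figure D1:**
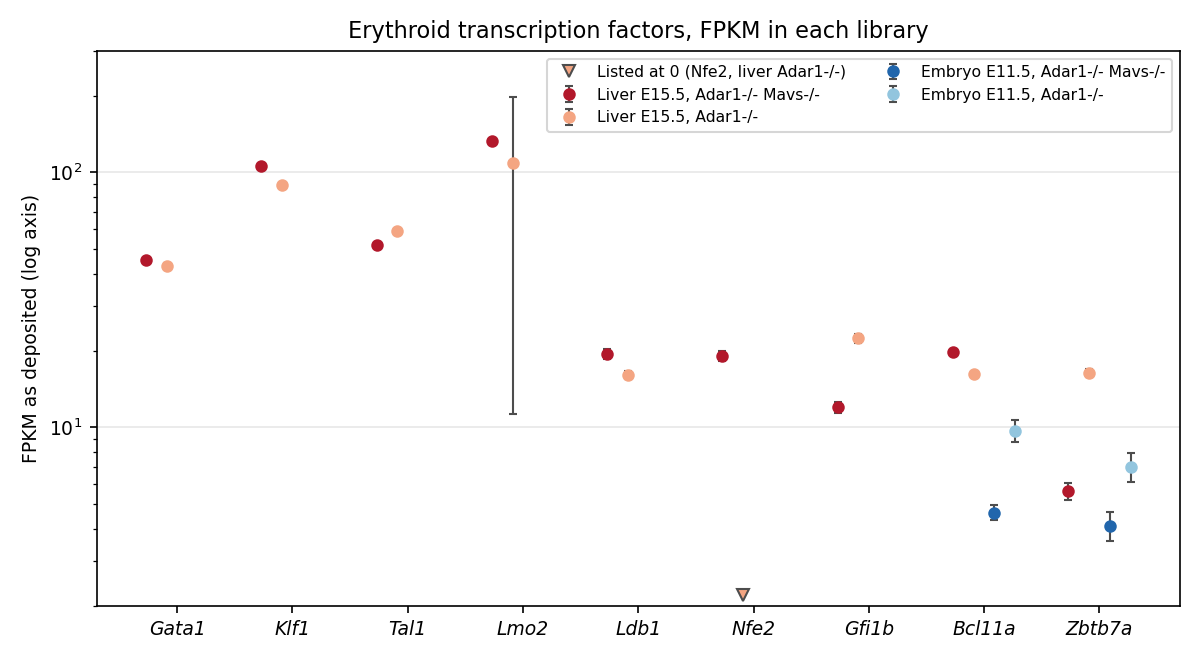
FPKM as deposited (log axis) of the 9 members read, 1 point per library, with the combined deposited bounds as bars; bars smaller than the point are hidden. Lmo2 and Klf1 are highest in both livers, Zbtb7a is lower in the liver labelled Adar1-/- Mavs-/- (5.64 FPKM) than in the one labelled Adar1-/- (16.4 FPKM), and a triangle marks Nfe2, listed at 0 in the liver labelled Adar1-/-.

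Gata1, the zinc finger factor at the head of this programme (mm9 chrX:7536386-7555197), had 45.1 FPKM (bounds 44.0 to 46.3) in the liver labelled Adar1-/- Mavs-/- and 43.1 FPKM (bounds 42.0 to 44.1) in the liver labelled Adar1-/-. Its log2 ratio was 0.06 (range -0.01 to 0.13), and the bounds of the libraries overlapped. The whole value came from 1 of 3 reference isoforms, Gata1-201, in both livers. Klf1, the CACCC-binding activator of adult beta globin (mm9 chr8:87425827-87429194), had 105.8 FPKM (bounds 103.8 to 107.9) in the liver labelled Adar1-/- Mavs-/- and 89.6 FPKM (bounds 87.9 to 91.3) in the liver labelled Adar1-/-. The log2 ratio of Klf1 was 0.23 (range 0.18 to 0.29) with bounds apart, and -0.09 with TPM scaling. Klf1 has 1 reference isoform, and no other isoform was placed under it. Gata1-201 and the Klf1 isoform had the status LOWDATA in both livers.

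The parts of the GATA1-bound complex differed in sign by small amounts. Tal1, its helix-loop-helix factor (mm9 chr4:114729031-114744360), had 51.7 FPKM (bounds 50.8 to 52.6) in the liver labelled Adar1-/- Mavs-/- and 59.2 FPKM (bounds 58.3 to 60.0) in the liver labelled Adar1-/-. That is a log2 ratio of -0.20 (range -0.24 to -0.15), and it stayed below 0 under all 8 alternatives that gave a value. Status OK only gave none, and Tal1-201 had the status LOWDATA in both livers. Lmo2, the bridging protein that holds TAL1 and GATA1 together without binding DNA (mm9 chr2:103798143-103822035), was the most abundant member. Lmo2 reached 132.5 FPKM (bounds 130.3 to 134.7) in the liver labelled Adar1-/- Mavs-/- and 108.5 FPKM in the liver labelled Adar1-/-. In the liver labelled Adar1-/- its bounds ran from 11.3 to 198.0 FPKM, with the status LOWDATA or FAIL on the isoforms above 0, and the log2 ratio of 0.28 had a range of -0.61 to 3.46. Ldb1, the scaffold through which distant elements are brought to promoters (mm9 chr19:46107083-46119704), had 19.4 FPKM (bounds 18.6 to 20.2) in the liver labelled Adar1-/- Mavs-/- and 16.1 FPKM (bounds 15.46 to 16.7) in the liver labelled Adar1-/-, a log2 ratio of 0.25 (range 0.14 to 0.36) that was -0.05 with TPM scaling.

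Within Ldb1 the isoforms differed more than the gene. Ldb1-201 had 9.05 FPKM (bounds 8.40 to 9.70) in the liver labelled Adar1-/- Mavs-/- and was listed at 0 in the liver labelled Adar1-/-, with the status LOWDATA in both. Ldb1-202 had 5.90 FPKM (bounds 5.44 to 6.36) in the liver labelled Adar1-/- Mavs-/- and 13.0 FPKM (bounds 12.4 to 13.6) in the liver labelled Adar1-/-. The 2 isoforms have the same coding sequence of 376 codons, stop included, and start at different sites: in GRCm38, Ldb1-202 starts 0 bases from the start site of the second RefSeq promoter window of the gene, and Ldb1-201 starts 5293 bases further upstream, 397 bases downstream of the start site of the third. Those windows are shown because the isoforms differ in where they start. Each runs from 250 bases before to 50 bases after a start site (RefSeq, GRCm38.p6, minus strand), at chr19:46039572-46039871 and chr19:46045262-46045561, with capitals marking matches to the CACCC-type letters CCNCNCCC on either strand.
Ldb1 window 2: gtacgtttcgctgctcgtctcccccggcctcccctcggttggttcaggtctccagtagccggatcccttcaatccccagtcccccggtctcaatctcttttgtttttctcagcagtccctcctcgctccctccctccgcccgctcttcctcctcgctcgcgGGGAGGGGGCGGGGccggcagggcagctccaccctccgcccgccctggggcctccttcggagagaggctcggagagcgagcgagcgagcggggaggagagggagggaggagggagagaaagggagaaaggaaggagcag
Ldb1 window 3: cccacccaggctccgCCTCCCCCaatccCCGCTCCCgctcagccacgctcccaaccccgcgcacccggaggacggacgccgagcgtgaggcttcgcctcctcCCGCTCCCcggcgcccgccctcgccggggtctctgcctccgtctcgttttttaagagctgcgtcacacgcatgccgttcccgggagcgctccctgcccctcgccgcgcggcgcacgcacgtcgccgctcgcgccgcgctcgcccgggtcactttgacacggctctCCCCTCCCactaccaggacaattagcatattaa
The windows hold 3 and 4 such matches, some overlapping, and no GATAA. How Cufflinks divides reads among isoforms that share exons is a model estimate, so a listed 0 for Ldb1-201 is no measured absence.

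Nfe2, which encodes the NF-E2 subunit (mm9 chr15:103078643-103088834), could not be compared. Nfe2 reached 19.1 FPKM (bounds 18.2 to 19.9) in the liver labelled Adar1-/- Mavs-/- and was listed at 0 in the liver labelled Adar1-/-. In that table all 10 reference isoforms of Nfe2 were at 0 with upper bounds of 366.95 to 3704 FPKM, and they were joined in a single assembly unit of 66.9 kb with Cbx5, a neighbouring heterochromatin protein gene whose own bounds ran from 27.9 to 232.1 FPKM. Such bounds leave its level there unknown. Among all 13852 genes counted, at 1 FPKM or more in either liver library, 5.26% were listed at 0 in 1 library with at least 2 FPKM in the other. In the liver labelled Adar1-/- Mavs-/-, Nfe2-208 gave 13.2 FPKM, 69.3% of the gene, and 2 assembled isoforms that run past the low-coordinate end of the gene's reference span gave 3.17 and 2.68 FPKM. Those 2 start at position 103070409 and held 351.2 and 223.5 kb of the 751.8 kb of read bases (coverage times length) placed under Nfe2. In the same liver the neighbouring gene Hnrnpa1, in a separate assembly unit, had 3.28 FPKM (bounds 3.04 to 3.53). All of it came from assembled isoforms, with 0 of 2 reference isoforms above 0. Hnrnpa1 was listed at 0 in the liver labelled Adar1-/-. Whether the 19.1 FPKM includes reads from outside Nfe2 was not tested.

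Gfi1b, the repressor gene that GATA1 activates and that acts with LSD1 (mm9 chr2:28464970-28477502), had 11.97 FPKM (bounds 11.4 to 12.6) in the liver labelled Adar1-/- Mavs-/- and 22.4 FPKM (bounds 21.5 to 23.3) in the liver labelled Adar1-/-. Its log2 ratio was -0.86 (range -0.98 to -0.74), a difference of 1.81-fold, and 13.0% of all genes counted had a lower ratio. Below 0 under all 9 alternatives, the ratio passed 2-fold in 3 of them. It was -1.97 with reference isoforms only and -1.31 without assembled isoforms that have no intron, an alternative added after the data were seen. Intronless assembled isoforms held 73.5% of the read bases (coverage times length) of Gfi1b in the liver labelled Adar1-/- Mavs-/- and 57.0% in the liver labelled Adar1-/-. Gfi1b-204, which codes for 364 codons, had 3.59 FPKM in the liver labelled Adar1-/- Mavs-/- and 9.46 FPKM in the liver labelled Adar1-/-. Gfi1b-201, with 331 codons, was listed at 0 in the liver labelled Adar1-/- Mavs-/- and had 7.39 FPKM in the liver labelled Adar1-/-.

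Zbtb7a, a repressor with a BTB domain and zinc fingers that is needed for red cell maturation (mm9 chr10:80597965-80615740), showed the widest difference among the 8 members above 0 in both livers, though Gfi1b differed more with reference isoforms only and without intronless assembled isoforms. Zbtb7a reached 5.64 FPKM (bounds 5.20 to 6.08) in the liver labelled Adar1-/- Mavs-/- and 16.4 FPKM (bounds 15.8 to 17.0) in the liver labelled Adar1-/-. The log2 ratio of -1.39 (range -1.54 to -1.25) is 2.63-fold, beyond the size of 90.9% of all genes counted. It stayed 2-fold lower under all 8 alternatives that gave a value, between -1.66 and -1.16. Status OK only gave no value. Both isoforms above 0 in the liver labelled Adar1-/- Mavs-/- had the status LOWDATA, as had Zbtb7a-202 in the liver labelled Adar1-/-. Both of its reference isoforms above 0 followed: Zbtb7a-202 had 3.90 FPKM in the liver labelled Adar1-/- Mavs-/- and 9.12 FPKM in the liver labelled Adar1-/-, and Zbtb7a-201, with the same coding sequence, had 1.74 FPKM in the liver labelled Adar1-/- Mavs-/- and 4.70 FPKM in the liver labelled Adar1-/-. An intronless assembled isoform of 14619 bases, 2.57 FPKM, appeared under Zbtb7a in the liver labelled Adar1-/- alone, where it held 45.5% of the read bases.

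The promoter windows of Zbtb7a and Gfi1b are shown because these are the members with the lowest ratios in liver (RefSeq, GRCm38.p6, 250 bases before to 50 after the start site, chr10:81136021-81136320 on the plus strand and chr2:28621933-28622232 on the minus strand). Zbtb7a-201 and Gfi1b-204 start at these sites exactly. Zbtb7a-202, the leading isoform of its gene in both livers, starts 1682 bases downstream of the Zbtb7a site. Gfi1b-201 starts 37 bases downstream of the Gfi1b site. Capitals mark matches on either strand to GATAA, the core letters GATA factors bind, and to CCNCNCCC.
Zbtb7a: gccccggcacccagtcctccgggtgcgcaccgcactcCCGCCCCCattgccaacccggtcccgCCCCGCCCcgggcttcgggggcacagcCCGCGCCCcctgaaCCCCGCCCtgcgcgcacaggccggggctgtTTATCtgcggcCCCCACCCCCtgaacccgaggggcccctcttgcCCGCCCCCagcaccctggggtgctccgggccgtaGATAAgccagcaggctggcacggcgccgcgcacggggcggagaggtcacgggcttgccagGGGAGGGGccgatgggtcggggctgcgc
Gfi1b: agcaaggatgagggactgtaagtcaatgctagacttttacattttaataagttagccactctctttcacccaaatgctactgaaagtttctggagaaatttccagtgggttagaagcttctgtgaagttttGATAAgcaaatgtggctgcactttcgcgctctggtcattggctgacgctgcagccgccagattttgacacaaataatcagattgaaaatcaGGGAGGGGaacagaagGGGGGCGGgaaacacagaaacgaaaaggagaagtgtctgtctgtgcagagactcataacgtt
Zbtb7a holds 2 GATAA and 8 CCNCNCCC matches, some overlapping, in a window of 77.7% GC, and Gfi1b holds 1 and 2 in a window of 44.3% GC. Over all 32851 promoter windows of this length, 25.4% hold GATAA and 49.5% hold CCNCNCCC, so either match is common. Windows were found for 7 of the 9 members read, 10 windows in all. Of the others, the first Ldb1 window holds 2 GATAA, the Klf1 window and 1 of the Tal1 windows hold 1 each, and those of Gata1 and Bcl11a hold none. Bcl11a-201 and Bcl11a-202 start 2639 and 2522 bases upstream of the start site of the Bcl11a window.

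**Figure D2:**
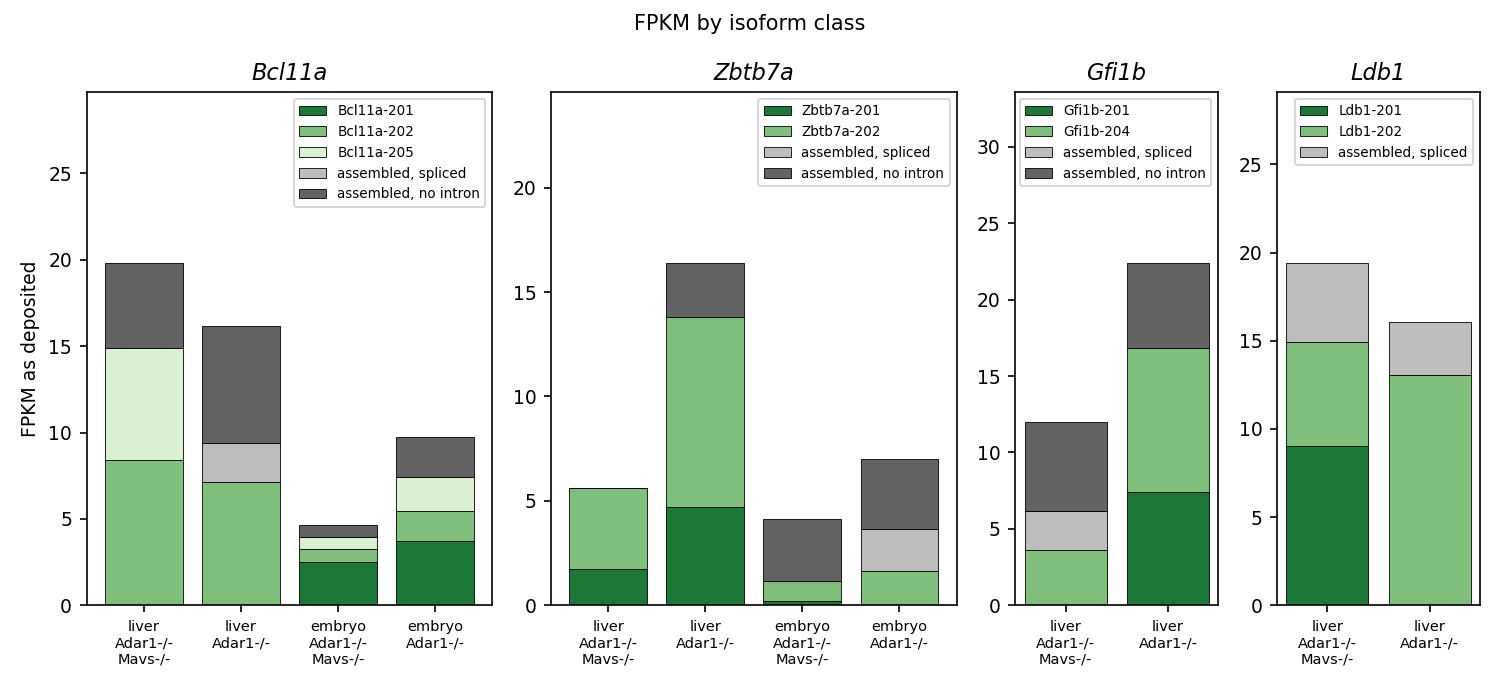
Stacked bars of FPKM as deposited by isoform in each library for Bcl11a, Zbtb7a, Gfi1b and Ldb1; green shades are reference isoforms, light grey assembled spliced isoforms and dark grey assembled isoforms with no intron. Bcl11a-201 is above 0 in both embryo libraries and listed at 0 in both liver libraries, and Ldb1-201 and Gfi1b-201 are each above 0 in 1 liver library.

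Bcl11a, the repressor of embryonic and fetal globin genes (mm9 chr11:23978056-24074123), had 19.8 FPKM (bounds 19.4 to 20.2) in the liver labelled Adar1-/- Mavs-/- and 16.2 FPKM (bounds 15.8 to 16.5) in the liver labelled Adar1-/-. The log2 ratio was 0.27 (range 0.21 to 0.33), but its sign rested on the processing: it was -0.03 with TPM scaling, -0.76 with isoforms of status OK only and 0.95 with reference isoforms only. In E11.5 embryos Bcl11a had 4.64 FPKM (bounds 4.32 to 4.95) in the Adar1-/- Mavs-/- library and 9.72 FPKM (bounds 8.73 to 10.7) in the Adar1-/- library. The embryo log2 ratio was -0.57 (range -0.79 to -0.35), with bounds apart as for 58.5% of the 1801 embryo genes above 0 in both, and it stayed below 0 under all 9 alternatives.

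Zbtb7a in the embryos had 4.12 FPKM (bounds 3.58 to 4.65) in the Adar1-/- Mavs-/- library and 7.01 FPKM (bounds 6.09 to 7.94) in the Adar1-/- library. Assembled isoforms gave 2.97 FPKM of this in the Adar1-/- Mavs-/- library and 5.35 FPKM in the Adar1-/- library. On the scaled values the log2 ratio of Zbtb7a was -0.30 (range -0.63 to 0.03), and the bounds overlapped. With reference isoforms only it was -0.10. Neither Bcl11a nor Zbtb7a passed 2-fold in embryos, where 10.9% of genes did, and 58.7% of embryo genes had ratios below 0 as both members did. With TPM scaling, which moved embryo ratios by -0.94 before the pseudocount, Bcl11a was at -1.34 and Zbtb7a at -1.05.

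**Figure D3:**
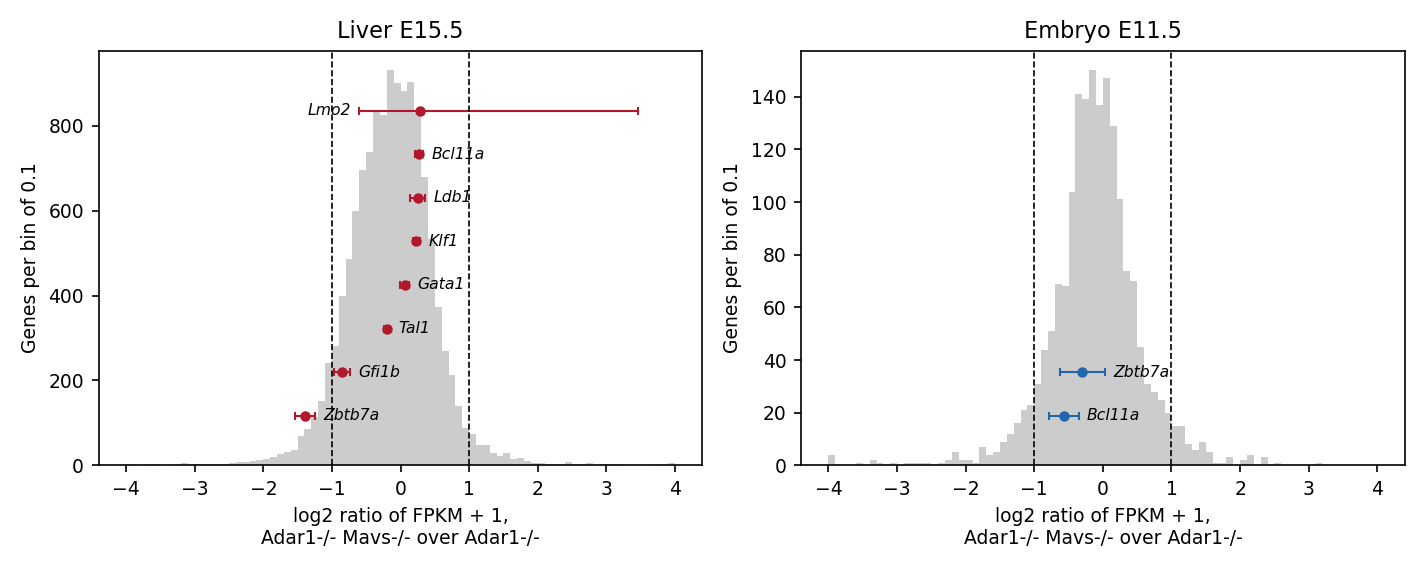
Log2 ratios of FPKM plus 1, Adar1-/- Mavs-/- over Adar1-/-, in liver (left) and embryo (right). Grey bars count all genes above 0 in both libraries in bins of 0.1, with values past the axis ends placed in the last bins; points are the members with the range their bounds allow, and dashed lines mark 2-fold. Zbtb7a at -1.39 is the single member past the line in liver.

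The estimated isoform levels of Bcl11a differed between liver and embryo. Bcl11a-201, of 774 codons, had 2.49 FPKM (bounds 2.23 to 2.75) in the Adar1-/- Mavs-/- embryo and 3.74 FPKM (bounds 2.90 to 4.57) in the Adar1-/- embryo. That was 53.6% of the gene's value in the Adar1-/- Mavs-/- embryo and 38.4% in the Adar1-/- embryo. It was listed at 0 in both livers, with the status LOWDATA in the liver labelled Adar1-/-. As for Ldb1, such a 0 is a model estimate among isoforms that share exons and no measured absence. The status of Bcl11a-202 was LOWDATA in both livers. Bcl11a-202, of 836 codons, led in both livers, with 8.41 FPKM (bounds 8.13 to 8.68) in the liver labelled Adar1-/- Mavs-/- and 7.14 FPKM (bounds 6.89 to 7.39) in the liver labelled Adar1-/-, against 0.787 FPKM in the Adar1-/- Mavs-/- embryo and 1.74 FPKM in the Adar1-/- embryo. Both share their first 2232 coding bases and then part, with 90 bases of their own in Bcl11a-201 and 276 in Bcl11a-202, which correspond to the L and XL forms of the protein. The longer form is known to end in a cluster of zinc fingers through which BCL11A binds DNA. The point where the coding sequences part is shown (plus strand of chromosome 11, GENCODE M21, GRCm38), with the last 30 shared bases in lower case and the first 90 bases of each isoform's own in capitals.
Bcl11a-201: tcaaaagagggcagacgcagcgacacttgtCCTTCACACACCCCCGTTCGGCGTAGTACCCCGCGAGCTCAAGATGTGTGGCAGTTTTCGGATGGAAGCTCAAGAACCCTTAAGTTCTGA
Bcl11a-202: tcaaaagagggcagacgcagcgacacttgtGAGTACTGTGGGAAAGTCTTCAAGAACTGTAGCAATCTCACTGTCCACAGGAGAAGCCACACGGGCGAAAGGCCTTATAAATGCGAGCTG
The capitals of Bcl11a-201 run to its stop codon. In the libraries where both were above 0, the embryos, the shorter isoform exceeded the longer one. Bcl11a-205, a retained-intron transcript, had 6.46 FPKM in the liver labelled Adar1-/- Mavs-/- and was listed at 0 in the liver labelled Adar1-/-. Intronless assembled isoforms held 51.5% of the read bases of Bcl11a in the liver labelled Adar1-/- Mavs-/- and 58.1% in the liver labelled Adar1-/-. The class held 20.5% in the Adar1-/- Mavs-/- embryo and 30.2% in the Adar1-/- embryo. Over all genes of at least 1 FPKM, 31.1% had any such isoform in the liver labelled Adar1-/- Mavs-/- and 29.1% in the liver labelled Adar1-/-.

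Between tissues, Bcl11a was higher in liver than in embryo within both genotype labels, though for Adar1-/- it was lower with TPM scaling. Its log2 ratio, E15.5 liver over E11.5 embryo, was 2.01 (range 1.90 to 2.12) for Adar1-/- Mavs-/- and 1.02 (range 0.86 to 1.19) for Adar1-/-. Zbtb7a had a ratio of 0.49 (range 0.24 to 0.74) for Adar1-/- Mavs-/- and 1.46 (range 1.24 to 1.68) for Adar1-/-. Of the genes above 0 in both libraries, 27.1% were at least 2-fold higher in liver for Adar1-/- Mavs-/- and 22.7% for Adar1-/-, and bounds were apart for 86.2% for Adar1-/- Mavs-/- and 84.8% for Adar1-/-. With TPM scaling the Bcl11a ratio was 1.19 for Adar1-/- Mavs-/- but -0.72 for Adar1-/-, and the Zbtb7a ratio was -0.23 for Adar1-/- Mavs-/- and -0.28 for Adar1-/-, so only the first of the 4 ratios kept its direction under every scaling. Tissue, age and strain label differ together here and cannot be told apart.

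In order of level, Lmo2, Klf1, Tal1 and Gata1 came first in both livers, with the bounds of Lmo2 and Klf1 overlapping in the liver labelled Adar1-/-. In the liver labelled Adar1-/- Mavs-/- they were followed by Bcl11a, Ldb1 and Nfe2, whose neighbours had overlapping bounds, and then by Gfi1b and Zbtb7a. In the liver labelled Adar1-/-, Gfi1b came next, and Zbtb7a, Bcl11a and Ldb1 followed between 16.1 and 16.4 FPKM with overlapping bounds. The read bases behind the members above 0 ran from 125.4 kb (Zbtb7a) to 2037 kb (Lmo2) in the liver labelled Adar1-/- Mavs-/- and from 433.7 kb (Ldb1) to 2138 kb (Tal1) in the liver labelled Adar1-/-.

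Partners of the members, and other regulators of red cell formation, had ratios below 0 more often than above it in liver. Of 36 genes in that list, 33 were counted, all above 0 in both libraries, and 27 of the 33 had a log2 ratio below 0, against 59% of all genes. The count was 24 of 33 with the upper quartile factor, against 51.3% of all genes, 30 of 33 with TPM scaling, against 77.8%, and 17 of 27 with isoforms of status OK only, against 57.2%, which is close to the background. By 2-fold, 2 of the 33 were higher and 5 lower, where 2.69% and 6.79% of all genes were. The counts with TPM scaling were 0 higher and 11 lower, where 1.41% and 13.2% of all genes were. Without intronless assembled isoforms 2 of 31 were lower, where 7.499% of all genes were, so that count is close to the background. The list median was -0.38 and stayed below 0 under all 9 alternatives, between -0.69 and -0.18. The lowest ratios were those of Spi1, the myeloid factor PU.1 that opposes GATA1, Mafg, a small MAF partner of NFE2, and Chd4, the helicase of the NuRD complex. Spi1 had 6.11 FPKM in the liver labelled Adar1-/- Mavs-/- and 18.0 FPKM in the liver labelled Adar1-/- (-1.42). Mafg had 3.75 FPKM in the liver labelled Adar1-/- Mavs-/- and 9.82 FPKM in the liver labelled Adar1-/- (-1.19). Chd4 had 17.4 FPKM in the liver labelled Adar1-/- Mavs-/- and 40.6 FPKM in the liver labelled Adar1-/- (-1.18), with overlapping bounds. Ssbp2 and Ssbp4, single-stranded DNA-binding proteins that stabilise LDB1, stood at the other end. Ssbp2 had 27.6 FPKM in the liver labelled Adar1-/- Mavs-/- and 12.9 FPKM in the liver labelled Adar1-/- (1.03), and Ssbp4 had 7.22 FPKM in the liver labelled Adar1-/- Mavs-/- and 3.08 FPKM in the liver labelled Adar1-/- (1.004). The deacetylase gene Hdac2 had 67.2 FPKM in the liver labelled Adar1-/- Mavs-/- and 44.8 FPKM in the liver labelled Adar1-/- (0.57). In embryos 9 of the list's genes were counted, from Mafg at -0.97 to Stat5b, a signal transducer of the erythropoietin receptor, at 0.56. None of the 9 passed 2-fold, against 10.9% of all embryo genes, but with TPM scaling 5 of the 9 were 2-fold lower, against 37.3% of all embryo genes.

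Genes known as targets of these factors lay on both sides of 0 in liver. Of 37 listed, 31 were counted and 29 were above 0 in both libraries, of which 5 were higher and 2 lower by 2-fold in the liver labelled Adar1-/- Mavs-/-, where 2.69% and 6.79% of all genes were. With TPM scaling 0 were higher and 3 lower, where 1.41% and 13.2% of all genes were. Without intronless assembled isoforms 5 of 28 were higher and 0 lower, where 2.60% and 7.499% of all genes were. The 2 lower calls, Btrc and Dmtn, were thus not made in that setting. Their median log2 ratio was 0.21, and -0.11 with TPM scaling. Epb42, which encodes a protein of the red cell membrane, had 248.6 FPKM in the liver labelled Adar1-/- Mavs-/- and 108.7 FPKM in the liver labelled Adar1-/- (1.18). Uros, an enzyme of heme synthesis, had 51.2 FPKM in the liver labelled Adar1-/- Mavs-/- and 23.3 FPKM in the liver labelled Adar1-/- (1.10). Btrc, a ubiquitin ligase subunit, had 2.42 FPKM in the liver labelled Adar1-/- Mavs-/- and 9.74 FPKM in the liver labelled Adar1-/- (-1.66). Dmtn, which encodes the membrane skeleton protein dematin, had 24.3 FPKM in the liver labelled Adar1-/- Mavs-/- and 51.1 FPKM in the liver labelled Adar1-/- (-1.05). The heme enzyme gene Alad had 53.9 FPKM in the liver labelled Adar1-/- Mavs-/- and 93.7 FPKM in the liver labelled Adar1-/- (-0.79). Epb41 had 19.1 FPKM in the liver labelled Adar1-/- Mavs-/- and was listed at 0 in the liver labelled Adar1-/-. Slc4a1, the anion exchanger of the red cell, was at 0.07. The summed level of the 32 listed genes held by both liver libraries was 5439 FPKM in the liver labelled Adar1-/- Mavs-/- and 4073 FPKM in the liver labelled Adar1-/-. The alpha globin genes Hba-a1 and Hba-a2, read in the embryos, are not among the 32 and not in this sum. Slc4a1 alone gave 1335 FPKM of that sum in the liver labelled Adar1-/- Mavs-/- and 1263 FPKM in the liver labelled Adar1-/-, while Ank1, which encodes the membrane skeleton protein ankyrin, was listed at 0 in both.

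Embryonic globins are the genes that BCL11A and ZBTB7A are known to repress. Of 3 counted, 2 were at least 2-fold higher in the liver labelled Adar1-/- Mavs-/-, against 2.69% of all genes. Hbb-y had 304.6 FPKM in the liver labelled Adar1-/- Mavs-/- and 83.4 FPKM in the liver labelled Adar1-/- (1.85), and Hbb-bh1 had 54.0 FPKM in the liver labelled Adar1-/- Mavs-/- and 11.7 FPKM in the liver labelled Adar1-/- (2.10). Hba-x had 9.61 FPKM in the liver labelled Adar1-/- Mavs-/- and 8.46 FPKM in the liver labelled Adar1-/- (0.16). The 3 ratios were not tied to any member by a test.

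**Figure D4:**
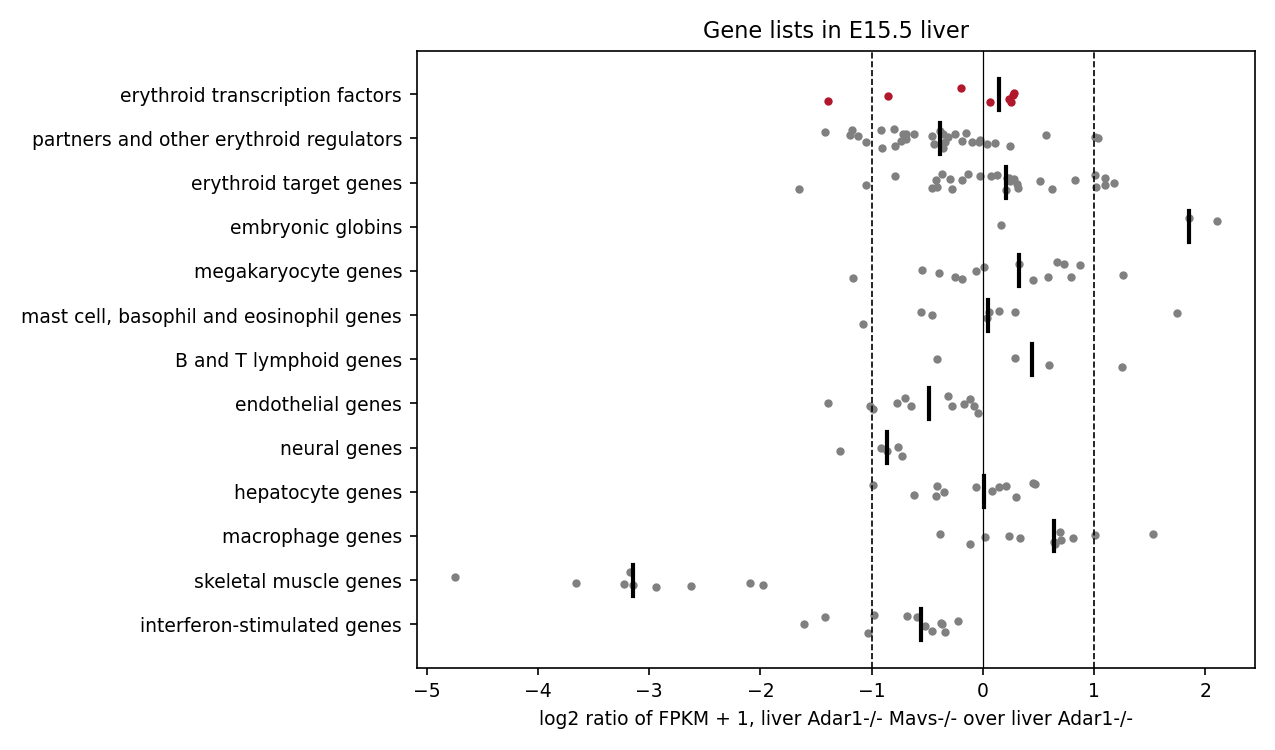
Log2 ratios in liver, Adar1-/- Mavs-/- label over Adar1-/- label, of each counted gene above 0 in both libraries, by list; black bars are medians and dashed lines 2-fold. The members (top, median 0.15) lie near 0 apart from Gfi1b and Zbtb7a, and the skeletal muscle genes lie lowest (median -3.15).

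Markers of other cells that express some members differed between the liver libraries too. Megakaryocyte genes summed to 184.0 FPKM in the liver labelled Adar1-/- Mavs-/- and 120.6 FPKM in the liver labelled Adar1-/-. Of 15 counted, 9 were above 0 on the log2 scale, against 41% of all genes. By 2-fold, 1 was higher (the platelet chemokine gene Ppbp, 1.26) and 1 lower (Vwf, -1.17, with overlapping bounds), where 2.69% and 6.79% of all genes were. Gp1ba and Selp were at 0 in both. Mast cell, basophil and eosinophil genes summed to 48.8 FPKM in the liver labelled Adar1-/- Mavs-/- and 51.8 FPKM in the liver labelled Adar1-/-, with Epx, the eosinophil peroxidase gene, at 1.75 and Kit at -1.08 among 8 counted. Without intronless assembled isoforms 0 of 8 were at least 2-fold higher, where 2.60% of all genes were. With reference isoforms only 0 of 5 were, against 2.64% of all genes, so the call of Epx rested on assembled isoforms. Endothelial genes summed to 73.9 FPKM in the liver labelled Adar1-/- Mavs-/- and 125.1 FPKM in the liver labelled Adar1-/-. All 12 endothelial genes above 0 in both had ratios below 0, against 59% of all genes. With the upper quartile factor 9 of them did, against 51.3%. Egfl7 and Ramp2 were listed at 0 in the liver labelled Adar1-/- Mavs-/-. In the liver labelled Adar1-/- Mavs-/-, B and T lymphoid genes summed to 15.499 FPKM, neural genes to 6.11 FPKM, hepatocyte genes to 14482 FPKM and macrophage genes to 257.5 FPKM. In the liver labelled Adar1-/- the sums were 11.0 FPKM for lymphoid, 16.4 FPKM for neural, 13632 FPKM for hepatocyte and 207.0 FPKM for macrophage genes. Of the lymphoid genes Rag2 was at 0 in both livers, and of the neural genes Neurod1, Tlx3 and Ina were.

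Skeletal muscle genes summed to 12.1 FPKM in the liver labelled Adar1-/- Mavs-/- and 167.4 FPKM in the liver labelled Adar1-/-. Of 9 counted, 9 were at least 2-fold lower, against 6.79% of all genes, and Tnnc2 was at 0 in both. Interferon-stimulated genes summed to 39.2 FPKM in the liver labelled Adar1-/- Mavs-/- and 71.6 FPKM in the liver labelled Adar1-/-. Of 12 counted, 12 had ratios below 0 and 3 were at least 2-fold lower, where 59% and 6.79% of all genes were. In embryos the 4 interferon-stimulated genes read summed to 3.65 FPKM in the Adar1-/- Mavs-/- library and 155.0 FPKM in the Adar1-/- library. The part of any of these lists in the members' ratios was not tested.

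By profile over the 4 libraries, the genes most like Bcl11a were Ddx50, Pus10 and Bsg, at distances of 0.08, 0.11 and 0.13 on the centred log2 scale, where the median distance over 1553 genes was 2.06. Those most like Zbtb7a were Serpinf1, Map3k5 and C1qbp, at 0.19, 0.22 and 0.32, against a median of 1.91. Only genes in the part that the embryo and liver tables share could be compared, and the distance is a description over 4 libraries.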

How the data were processed

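Total RNA libraries were prepared with Trizol and standard Illumina steps, per the labels' protocols. The submitters' processing notes name the build mm9, TopHat 1.4.0, Cufflinks 2.2.1 and edgeR 3.4.2 without roles. The authors deposited FPKM per isoform with confidence bounds, a status and a coverage signal, per the file headers; coverage is mean read depth over an isoform, and the sources used here do not give strandedness. Depth as read totals is unknown: coverage per FPKM was 7.13 for Adar1-/- Mavs-/- and 8.58 for Adar1-/- in liver, and 5.62 for Adar1-/- Mavs-/- and 3.48 for Adar1-/- in embryo.

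Identifiers were matched to symbols through GENCODE M21. Isoforms without a match were placed under the symbol in the same Cufflinks gene that they overlapped most, FPKM were summed, and bounds were combined as the root of summed squares (Python 3.11.15, pandas 2.3.3). Values were scaled so that genes of at least 5 FPKM in both libraries had a median ratio of 1, and genes of at least 1 FPKM in either were counted. No p-value was computed. The comparison was tested on simulated data. Of each list other than the members, the 3 highest and 3 lowest ratios were named (all where 6 or fewer were counted), plus genes listed at 0 in 1 library with at least 2 FPKM in the other; 1 gene this rule names is not reported here, Slc4a1 was named after its value was seen, and in the lists of other cells most such genes are given by sums and counts. The members and lists were chosen with earlier results of these data known.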

Additional observations from a re-analysis of the deposited data

Results flagged for a closer look

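Some genes had opposite directions in the 2 tissues, Adar1-/- Mavs-/- over Adar1-/-, and the difference between tissues was not tested, since each group has 1 library. Only the members and the list genes named by rule in both tissues were searched. Other list genes also differed in sign, such as Stat5b (-0.69 in liver and 0.56 in embryo). The share of all genes with opposite signs was not computed, so the genes below are not shown to be unusual. Bcl11a had a log2 ratio of 0.27 in liver and -0.57 in embryo. Itgb3, the megakaryocyte integrin gene, had -0.40 in liver and 0.40 in embryo. Stab2, a liver endothelial scavenger receptor gene, had -0.98 in liver and 0.55 in embryo. Apob, which encodes an apolipoprotein, had 0.45 in liver and -0.47 in embryo. The embryo bounds of the libraries overlapped for Stab2 and Apob. The liver ratio of Bcl11a changed sign with TPM scaling (-0.03) and with isoforms of status OK only (-0.76). The embryo ratio of Itgb3 changed sign with TPM scaling (-0.26) and with reference isoforms only (-0.34), and that of Stab2 was 0.05 with TPM scaling.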

How the results depend on the processing

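No paired analysis was possible because each group has 1 library, and for the same reason no library could be left out. The member median in liver, 0.15, was -0.17 with TPM, 0.28 with an upper quartile factor and -0.76 with isoforms of status OK only, which left 3 members above 0 in both libraries. The count of members 2-fold apart, 1, was 2 with TPM, 2 with reference isoforms only, 2 without intronless assembled isoforms (an alternative chosen after seeing the data) and 0 with status OK only. For the embryo ratios of Bcl11a and Zbtb7a, -0.57 and -0.30, FPKM as deposited gave -0.93 and -0.65, TPM -1.34 and -1.05, and for Zbtb7a status OK only gave -0.64 and leaving out intronless isoforms -0.88. The sizes were smaller with the upper quartile factor, at -0.47 for Bcl11a and -0.20 for Zbtb7a. With reference isoforms only they were -0.47 for Bcl11a and -0.10 for Zbtb7a. For liver over embryo in Adar1-/- Mavs-/-, Bcl11a (2.01) was 2.203 with a pseudocount of 0.1, 1.88 as deposited, 1.19 with TPM, 1.79 with the upper quartile, 1.84 with reference isoforms, 0.26 with status OK only and 1.83 without intronless isoforms, and Zbtb7a (0.49) was -0.23 with TPM, 1.77 with reference isoforms and 1.75 without intronless isoforms. For liver over embryo in Adar1-/-, Bcl11a (1.02) reversed to -0.72 with TPM and was 0.68 as deposited, 0.27 with reference isoforms, 0.17 with status OK only and 0.62 without intronless isoforms, and Zbtb7a (1.46) reversed to -0.28 with TPM and was 1.12 as deposited, 2.81 with reference isoforms, 0.30 with status OK only and 2.01 without intronless isoforms. The causes were not tested. TPM moved liver ratios by -0.32 before the pseudocount and the upper quartile by 0.13. In liver the share of 2-fold genes that were higher, 40.4% over all counted genes, was 24.1% with TPM, 28.9% with reference isoforms only and 51.1% with status OK only. Of the single members in liver, Gata1, Klf1, Tal1, Lmo2 and Zbtb7a gave no value with status OK only. With 1 library a group, depth within a library sets the bounds, and spread between animals is unknown.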
